A study of Xenopus tropicalis with 9 samples.

Results

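Forkhead (fox) genes encode transcription factors that bind DNA through a winged-helix domain. The family is sorted into lettered classes, and its members differ in where they act: some open chromatin in the endoderm, some relay hedgehog, Nodal or insulin signals, and some switch on motile cilia, ionocytes or immune cell programmes. Their levels were described in adult Xenopus tropicalis, the western clawed frog, by mRNA sequencing. Members were the gene rows whose symbol begins with fox, a class letter from a to s and a digit, with 1 further gene of the family left out by that rule. This gave 42 genes of 30330, and all 42 symbols were found in the RefSeq gene table.

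The 9 libraries came from adult animals. Head was sampled from a female and a male (n = 2), heart from a female and a male (n = 2), and lung, ovary, testes, intestine and GI tract gave 1 library each. The testes library was from a male, and lung, ovary, intestine and GI tract were from females. The labels name no strain, genotype or treatment, and they do not say whether libraries of different tissues share an animal, and the p-values below reflect only how these samples vary. Tissues with 1 library have no replicate check of their own.

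Total counts ranged from 27628254 to 35044545 per library. A floor of 3 counts corresponded to 0.0856 to 0.109 CPM (counts per 1000000), and it covers counting error only. Markers of the labelled tissue were read in several libraries: 12 heart muscle markers summed to 55739 and 77786 TPM (transcripts per 1000000) in the hearts, 9 lung epithelium markers to 22151 TPM in lung, and 15 neuron markers to 1166 and 1228 TPM in the heads. In testes, 5 spermatid and sperm markers summed to 485 TPM. Gonadal soma markers, 12 genes, summed to 887 TPM in testes but only 18.5 in ovary. Intestinal epithelium markers, 12 genes, summed to 24869 TPM in GI tract, 11812 in intestine and 7851 in testes. Several libraries also held transcripts of other organs. Markers of oocytes, 19 genes, summed to 29461 TPM in ovary, 11890 in female heart, 8271 in lung, 1828 in testes and 534 in female head, against 19.4 to 276 in the other libraries. Stomach markers, 7 genes, summed to 53513 TPM in GI tract, 40057 in intestine, 23145 in testes and 1664 in female head, against 4.12 to 68.7 elsewhere.

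Of the 42 members, 33 reached 1 TPM in at least 1 library, 27 reached 5 TPM, and 9 stayed under 1 TPM everywhere. The 9 were foxa4, foxb1, foxb2, foxd4l1.1, foxd4l1.2, foxe1, foxe3, foxi4.1 and foxi4.2, of which foxb2 had 0 counts in all libraries. Among the 33, 6 members (18.2%) reached 1 TPM in all 9 libraries, against 32.3% of all genes with 1 TPM in at least 1 library. The median tissue specificity index tau, which runs from 0 for even expression to 1 for a single tissue and was taken over tissue means of log2(TPM + 1), was 0.627 for the 33 members and 0.522 for all genes. The index was lowest for foxn3, at 0.153.

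The libraries differed in how many members they held and in which member led. Members at 1 TPM or more numbered 31 in female head, 27 in male head, 27 in testes, 22 in GI tract, 20 in intestine, 19 in lung, 15 in the female and 10 in the male heart, and 9 in ovary. The summed level of the family was highest in ovary (1187 TPM) and lung (1069 TPM) and lowest in male heart (323 TPM). In ovary, foxr1 alone made up 95.3% of that sum. In female heart and lung the leading member was foxi2, with 35.1% and 18.8% of the sum, and elsewhere it was foxn3 or foxk2.

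**Figure D1:**
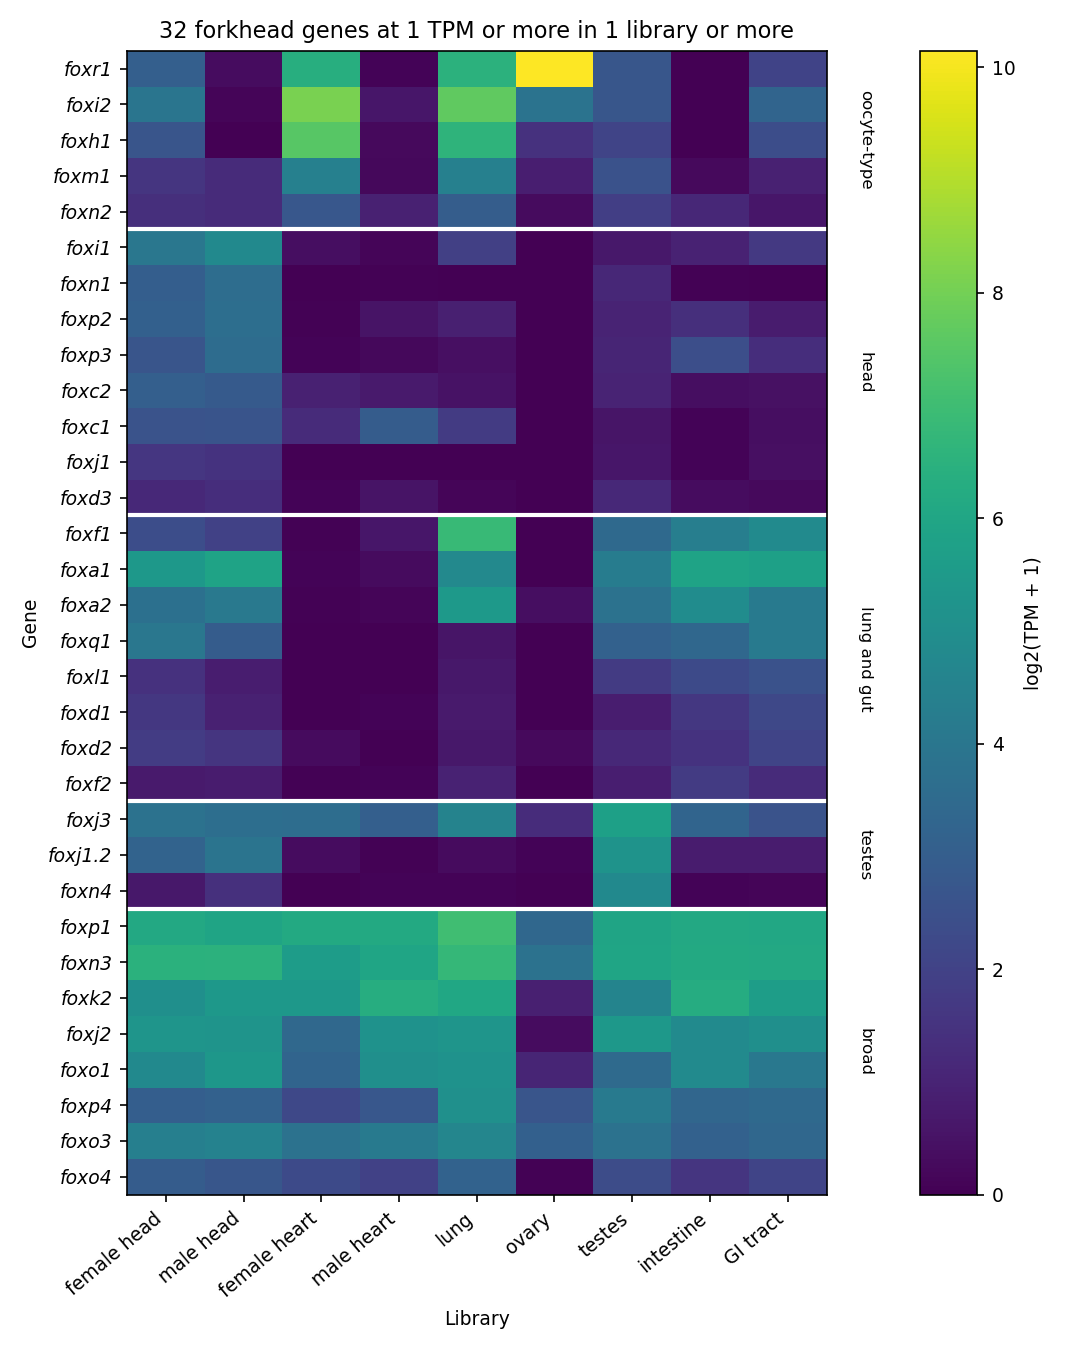
Levels of 32 of the 33 forkhead genes that reached 1 TPM in at least 1 of the 9 libraries, as log2(TPM + 1), with 1 row per gene, 1 column per library and rows grouped for display by where the gene was high. The rows labelled oocyte-type are highest in female heart, lung or ovary. The head rows are highest in a head except foxc1, which is highest in male heart (6.76 TPM). Among the head rows, foxj1 and foxd3 are low even in the heads (at most 2.08 and 1.48 TPM). The oocyte-type label also covers foxm1 and foxn2, which are low in ovary (0.82 and 0.23 TPM), as is foxh1 (1.70 TPM). Of the 8 broad rows 7, all but foxp4, are darkest in ovary.

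The oocyte-type members were foxr1, foxh1 and foxi2. In zebrafish, foxr1 is supplied to the egg by the mother. In Xenopus, foxh1 is a maternal partner of Smad2 and Smad3 in Nodal signalling, and foxi2 is a maternal activator of ectoderm genes. All 3 were high in female heart and lung, while in ovary foxr1 stood far above foxi2 and foxh1 in TPM. The level of foxr1 was 1131 TPM in ovary, 89.6 in lung, 81.9 in female heart, 7.30 in female head, 5.64 in testes, 3.10 in GI tract, 0.28 in male head, 0.07 in male heart and 0 in intestine. Ovary was thus 12.6 times lung and 13.8 times female heart in TPM. In TMM-scaled CPM, counts per 1000000 after the scaling used in the tests, these ratios were 48.3 and 32.6.

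The order of foxh1 was different. Its level was 179 TPM in female heart, 95.9 in lung, 5.38 in female head, 4.24 in GI tract, 3.26 in testes, 1.70 in ovary, 0.19 in male heart, and 0 in male head and intestine. Female heart was 105 times ovary for this gene in TPM, and lung was 56.4 times ovary. In TMM-scaled CPM the ratios were 46.1 and 15.1, and ovary (10.1 CPM) lay above female head (9.50 CPM). The level of foxi2 was 272 TPM in female heart, 200.5 in lung, 14.6 in female head, 13.4 in ovary, 8.60 in GI tract, 5.50 in testes, 0.54 in male heart, 0.11 in male head and 0 in intestine. In TPM both genes were therefore low in the library with the most oocyte marker transcripts and high in female heart and lung. For foxi2 female heart was 20.3 times ovary and lung 15 times in TPM, but 7.78 and 3.52 times in TMM-scaled CPM. On that scale ovary (31.8 CPM) lay above GI tract (11.2 CPM) and female head (8.87 CPM) for foxi2. The ratio of foxi2 to foxh1 in TPM was 1.52 in female heart, 2.09 in lung, 2.71 in female head, 2.03 in GI tract and 1.69 in testes, and 7.87 in ovary. The ratio of foxr1 to foxh1 was 0.457 to 1.73 in those 5 libraries and 665 in ovary.

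**Figure D2:**
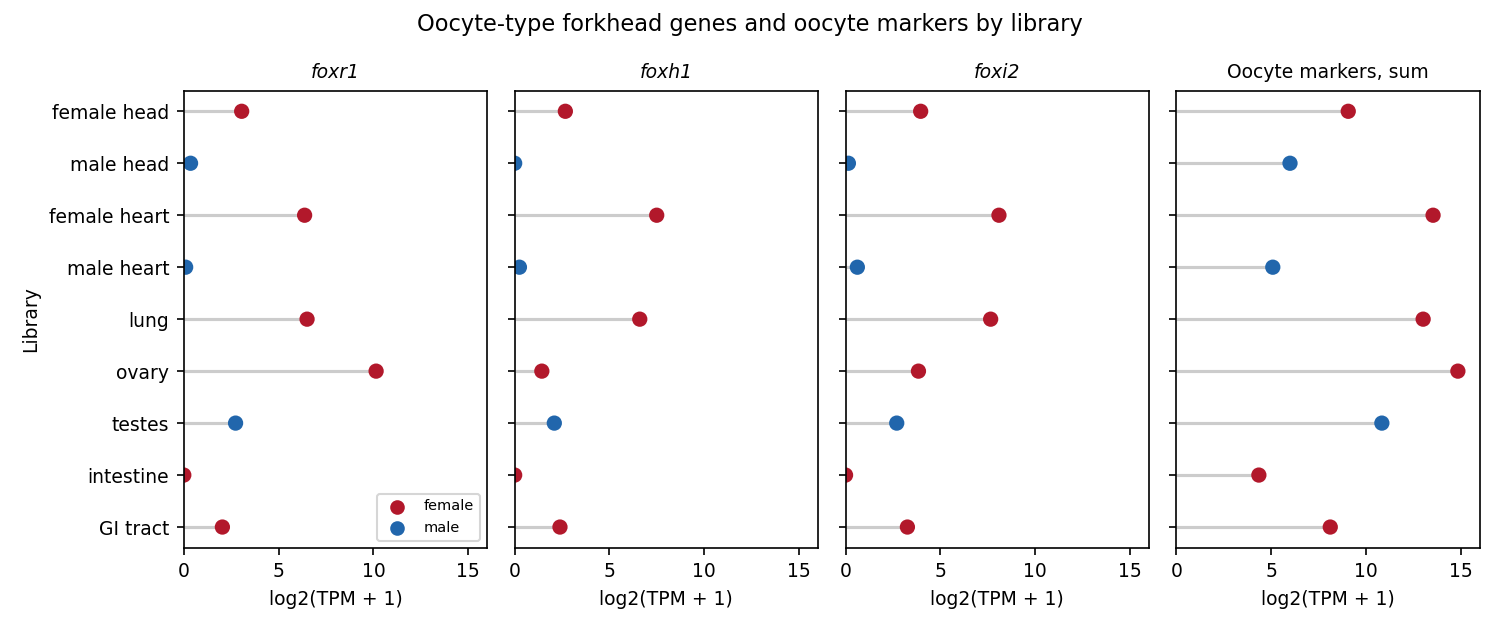
Levels of foxr1, foxh1 and foxi2 and the sum of 19 oocyte markers in each of the 9 libraries, as log2(TPM + 1), with female libraries in red and male libraries in blue. Points for foxh1 and foxi2 are farthest right in female heart (179 and 272 TPM), while foxr1 and the marker sum are farthest right in ovary (1131 and 29461 TPM).

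Female against male was compared in the heads and hearts, 4 libraries, with tissue also in the model. Among 37 members tested, 3 were higher in the females and none lower, which is 8.11% of members against 1.62% of all 19276 genes called (edgeR quasi-likelihood test, adjusted p under 0.05). The female and male values were 5.38 and 0 TPM in head and 179 and 0.19 TPM in heart for foxh1, a log2 fold change of 9.91 ± 1.5 (SE; edgeR adjusted p = 5.48e-08). For foxi2 they were 14.6 and 0.11 TPM in head and 272 and 0.54 TPM in heart, a log2 fold change of 7.87 ± 1.35 (edgeR adjusted p = 1.94e-06). For foxr1 they were 7.30 and 0.28 TPM in head and 81.9 and 0.07 TPM in heart, a log2 fold change of 6.99 ± 1.67 (edgeR adjusted p = 0.00303). The female library was the higher one in both tissues for each gene.

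The 3 calls held in DESeq2, which called 2.84% of all genes. They were lost in limma, which called 0% of all genes on either log scale. On log2(TPM + 1) each limma adjusted p was 0.779. On log2(TPM + 0.1) the limma adjusted p was 0.0587 for foxh1, 0.0571 for foxi2 and 0.109 for foxr1. The test has 1 residual degree of freedom, the tissue by sex interaction. In the same comparison 15 of 19 oocyte markers tested were higher in the females, and the marker sums were 534 and 62.6 TPM in the female and male heads and 11890 and 32.9 TPM in the female and male hearts. The part of these transcripts in the 3 fox differences was not tested.

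Genes with the closest profile over the 9 libraries were taken from 11207 genes with a symbol and at least 10 TPM in 1 library. Nearest to foxh1 were patl2 (Pearson r = 0.998 on log2(TPM + 1)), dctpp1 (0.993), hist1h1t (0.993), zpy1 (0.992) and nanos1 (0.990). Nearest to foxr1 were slc38a8 (0.996), rnf138 (0.996), eif4e1b (0.995), zp4.2 (0.994) and map1lc3c (0.994). The 2 sets of 5 were picked on these same values, so they lie apart in ovary as foxh1 and foxr1 do. There the foxh1 set lay between 0.55 and 21.1 TPM, and the foxr1 set between 348 and 10607 TPM. These r values share the same 9 libraries and describe likeness only.

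Relatives in the Nodal pathway were read from a list of 32 genes, 26 of them in the tables. Of 19 tested, 3 were higher in the females and none lower, with a list median log2 fold change of 0.56 against -0.09 over all genes. The Nodal co-receptor gene tdgf1.3 had 18.9 and 0.26 TPM in the female and male heads, 408 and 0.61 TPM in the female and male hearts, and 340 TPM in ovary. The effector gene smad2 was present everywhere, from 67.5 TPM in ovary to 490 in testes.

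The cell cycle regulator foxm1 activates genes of the G2 and M phases. It stood at 20.5 TPM in lung, 20.1 in female heart, 4.81 in testes, 1.99 in female head, 1.35 in male head, 0.90 in GI tract, 0.82 in ovary, 0.21 in intestine and 0.15 in male heart. Its profile was close to that of foxh1 (Pearson r = 0.932 on log2(TPM + 1) over 9 libraries), and it was not called between females and males. Of 26 G2 and M phase genes tested, 8 were higher in the females and none lower, with a list median log2 fold change of 3.48 against -0.09 over all genes. The mitotic cyclin gene ccnb1 had 71.1 and 0.21 TPM in the female and male heads, and 2810 and 3.19 TPM in the female and male hearts. Close to foxm1 in turn was foxn2 (r = 0.927), at 6.95 TPM in lung, 5.76 in female heart, 2.72 in testes and 0.23 to 1.61 elsewhere.

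Another set was highest in head. Among the members called there were foxn1, the regulator of thymic epithelium, and foxi1, the regulator of ionocytes. The level of foxn1 was 7.13 and 11.2 TPM in female and male head, 1.17 in testes and at most 0.05 elsewhere. The level of foxi1 was 15.5 and 27.3 TPM in female and male head, 2.82 in lung, 2.25 in GI tract, 0.94 in intestine, 0.57 in testes, 0.29 and 0.11 in the female and male hearts, and 0 in ovary. For these genes both heads lay above every other library.

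Head was tested against the mean of the other 6 tissues in a fit of all 9 libraries. Of 38 members tested, 7 were higher in head and none lower, which is 18.4% of members against 9.94% of all 23090 genes called higher (edgeR adjusted p under 0.05). The median log2 fold change was 1.97 for the members and 0.42 for all genes. The called members included foxn1 (log2 fold change 9.05 ± 0.78, SE; edgeR adjusted p = 0.0156), foxi1 (5.33 ± 0.65; edgeR adjusted p = 0.0226), foxj1 (5.22 ± 0.76; edgeR adjusted p = 0.0416), foxq1 (4.52 ± 0.70; edgeR adjusted p = 0.0462), foxp3 (4.15 ± 0.74; edgeR adjusted p = 0.0406) and foxc2 (3.90 ± 0.57; edgeR adjusted p = 0.0286). Where tissues had 0 counts these fitted folds depend on the prior count of the fit. In bulk tissue, fewer cells of a type and less RNA per cell cannot be told apart.

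The call of foxn1 held in all 11 alternatives, with adjusted p up to 0.0281. The calls of foxi1, foxj1, foxq1, foxp3 and foxc2 were each lost in at least 1 alternative. Without the female head, foxc2 (adjusted p = 0.314), foxj1 (0.133), foxp3 (0.171) and foxq1 (0.171) were lost. Without the male head, foxc2 (0.236), foxi1 (0.0983), foxj1 (0.103) and foxp3 (0.532) were lost. Without lung, foxj1 (0.0626), foxp3 (0.056) and foxq1 (0.0602) were lost. Without the low count filter the same 3 were lost, at 0.0613, 0.0568 and 0.0724. In limma, foxp3 (0.0518) and foxq1 (0.103) were lost on log2(TPM + 1), and foxq1 (0.0514) on log2(TPM + 0.1). The folds of foxc2 moved little, to 3.73 with the female head out and to 4.06 with the male head out, while that of foxq1 was 1.59 on log2(TPM + 1). With 1 library left out edgeR called 3 members without the female head (6.12% of all genes), 3 without the male head (5.79%), 22 with the female heart out (37.0%), 23 with the male heart out (43.5%) and 4 without lung (7.70%). Limma called 8 members on each scale, against 13.0% of all genes on log2(TPM + 1) and 13.1% on log2(TPM + 0.1).

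**Figure D3:**
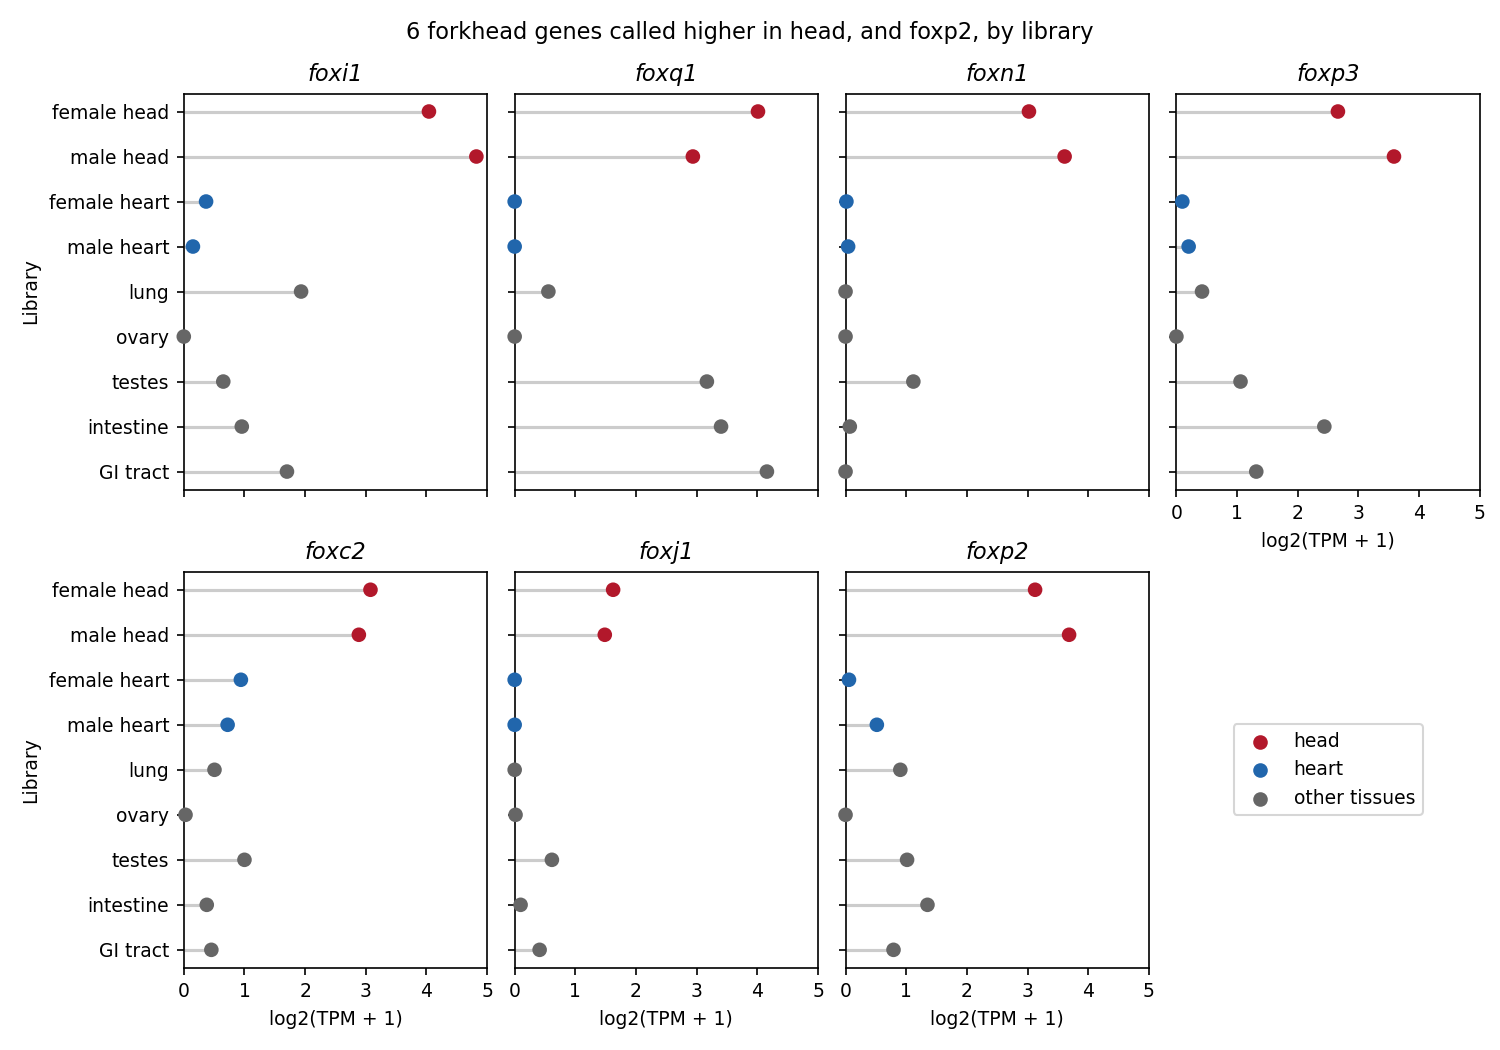
Levels of 6 of the 7 forkhead genes called higher in head and of foxp2 in each of the 9 libraries, as log2(TPM + 1), with heads in red, hearts in blue and the other tissues in grey. Both heads lie to the right of all other libraries for every gene shown except foxq1, whose level in GI tract (16.9 TPM) lies above both heads.

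The other called members had smaller margins over the remaining tissues. Motile cilia are switched on by foxj1, which had 2.08 and 1.80 TPM in the female and male heads, 0.53 in testes, 0.33 in GI tract, 0.07 in intestine, 0.01 in ovary, and 0 in both hearts and lung. Vessel and mesenchyme development involve foxc2, which stood at 7.44 and 6.39 TPM in the female and male heads and between 0.02 and 1 TPM in the other 7 libraries. Regulatory T cells are specified by foxp3, which stood at 5.33 and 11.01 TPM in the female and male heads, 4.42 in intestine, 1.49 in GI tract, 1.08 in testes, and at most 0.34 elsewhere. Intestine was thus near the female head for foxp3. The call of foxq1 was of another kind: its levels were 15.1 and 6.66 TPM in the heads but 16.9 in GI tract, 9.57 in intestine and 7.99 in testes, against 0.47 in lung and 0 in both hearts and ovary. In the female and male heads, stomach markers summed to 1664 and 68.7 TPM and exocrine pancreas markers to 1184 and 5.78 TPM. Intestinal epithelium markers summed to 646 and 112 TPM there. The part of those transcripts in the head levels of foxq1 and foxl1 was not tested.

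Markers of several cell types were set beside these members. Epidermis markers, 11 genes, summed to 7379 and 7258 TPM in the female and male heads and to 11.9 to 293 TPM elsewhere. Of the 11 epidermis markers tested, 8 were higher in head than in the mean of the other tissues. In the heads, 15 ionocyte markers summed to 305 and 361 TPM in the female and the male, and 4 of 13 tested were higher in head than in the mean of the other tissues. The ionocyte sum was highest in ovary, at 526 TPM, where foxi1 had 0 TPM. Only 5 of the 15 ionocyte markers reached 1 TPM in ovary, however, against 13 in each head. Of 25 motile cilia markers tested 6 were higher in head, of 15 neuron markers 14, of 9 leukocyte markers 2, and of 11 thymus and T cell markers none, where edgeR gave the thymus list a median log2 fold change of 2.24 against 0.42 for all genes. Thymus and T cell markers summed to 120 TPM in intestine, 72.8 in GI tract and 59.0 in testes. They summed to 44.7 and 194 TPM in the female and male heads, and leukocyte markers to 204 and 479 TPM. The foxn1 and foxp3 values were also smaller in the female head than in the male head, and the part of these markers in that was not tested.

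More members were high in head without passing the test. Brain and airway development involve foxp2, which stood at 7.72 and 11.9 TPM in the female and male heads and at most 1.55 elsewhere (log2 fold change 4.66 ± 1.01, SE; edgeR adjusted p = 0.0601). Its profile followed that of foxp3 (Pearson r = 0.926 on log2(TPM + 1) over 9 libraries). The mesenchyme and eye gene foxc1 differed from foxc2: its levels were 5.12 and 5.26 TPM in the heads but 1.40 and 6.76 in female and male heart, 2.37 in lung and at most 0.47 elsewhere. The neural crest gene foxd3 had 1.24 TPM in testes, near its 1.23 and 1.48 TPM in the heads. The thyroid gene foxe1, the lens gene foxe3 and foxb1 stayed at 0.28 to 0.59 TPM in the heads, although 14 lens markers summed to 2175 and 1625 TPM there.

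Head against heart was tested in the 4 libraries of these tissues, the comparison with 2 libraries on each side. With tissue as the sole term, edgeR called 0 of 37 members at an adjusted p under 0.05, as it did for 0% of the 19276 genes. An unadjusted p under 0.05 was found for 17 of the 37 members and 4670 of the 19276 genes. DESeq2 called 14 members, all higher in head (37.8% of members, 20.3% of all genes), and limma called 10 on log2(TPM + 1) (11.0% of all genes) and 13 on log2(TPM + 0.1) (16.1% of all genes). With sex as a block, edgeR called 14 members, 12 higher and 2 lower in head, against 14.4% of all genes. The median log2 fold change of members was 2.65 without and 3.37 with the block, against -0.10 and 0.14 for all genes.

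The 12 higher members in the blocked fit included foxa1, foxa2, foxi1, foxj1, foxj1.2, foxl1, foxn1, foxn4, foxp2, foxp3 and foxq1. The hearts had 0 counts of foxq1, foxj1 and foxl1, so their folds are lower bounds against a floor of 3 counts per library: at least 270-fold for foxq1, at least 39.8-fold for foxj1 and at least 24.7-fold for foxl1. The endoderm gene foxa1 averaged 50.1 ± 12.2 TPM in head and 0.145 ± 0.120 TPM in heart (SD, n = 2 each), with a log2 fold change of 7.73 ± 1.39 (SE; edgeR adjusted p = 1.51e-06). The 2 lower members were foxh1 (-5.89 ± 1.32; edgeR adjusted p = 0.000226) and foxi2 (-4.12 ± 1.19; edgeR adjusted p = 0.00663). Head was below heart in both sexes for both genes, with foxh1 at 5.38 and 179 TPM in the female head and heart and at 0 and 0.19 TPM in the male head and heart. For foxi2 these were 14.6 and 272 TPM in the female and 0.11 and 0.54 TPM in the male, where the counts were only 0 and 15 for foxh1 and 3 and 16 for foxi2. The female heart held 11890 TPM of oocyte markers. Without it the fit without a sex term set both heads against the male heart alone, and there the log2 fold changes were 2.99 for foxh1 and 2.82 for foxi2.

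Leaving out 1 library from the test without the block gave 6 calls with the female head out (2.79% of all genes), 2 with the male head out (2.28%), 16 with the female heart out (29.7%) and 21 with the male heart out (50.0%). Heart itself held few members. Against the mean of the other 6 tissues, edgeR called 0 of 38 members (0% of all genes), also with lung left out. An unadjusted p under 0.05 was found for 4 of the 38 members and 3267 of the 23090 genes. Limma called none on either log scale, and DESeq2 called 2 higher and 7 lower (10.5% of all genes). DESeq2 gave foxc1 a log2 fold change of 4.30 ± 1.1 (SE; DESeq2 adjusted p = 0.00172), with 1.40 and 6.76 TPM in female and male heart, against 5.12 and 5.26 TPM in the heads and 0 to 2.37 TPM in the other 5 libraries. The other higher member in DESeq2 was foxi2, at 272 and 0.54 TPM in the female and male hearts. With 1 library left out, edgeR called 3 members without the female head (2.87% of all genes), 3 without the male head (2.43%), 8 without the female heart (19.3%) and 4 without the male heart (12.7%).

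The mesenchymal gene foxf1 was highest in lung. The genes foxf1 and foxf2 act in the mesenchyme of lung and gut downstream of hedgehog ligands from the epithelium. The level of foxf1 was 112 TPM in lung, 28.1 in GI tract, 19.4 in intestine, 10.1 in testes, 4.23 and 2.91 in female and male head, 0.05 and 0.54 in female and male heart, and 0 in ovary. Lung was 3.97 times GI tract and 5.76 times intestine in TPM, and 1.65 and 2.49 times in TMM-scaled CPM. Its close relative foxf2 reached only 0.94 TPM in lung, 119 times less than foxf1 there, and was highest in intestine (2.36 TPM) and GI tract (1.39 TPM).

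Lung also held foxa2, a pioneer factor of endoderm, at 43.0 TPM, against 29.9 in intestine, 16.9 in GI tract, 13.1 in testes, 12.4 and 16.4 in female and male head, 0.30 in ovary, and 0.05 and 0.09 in female and male heart. Against the mean of the other 6 tissues edgeR called 0 of 38 members in lung (0% of all genes), limma none on either log scale, and DESeq2 called foxf1 alone (2.14% of all genes). The 2 members with an unadjusted p under 0.05 were foxf1 (log2 fold change 5.52 ± 1.03, SE) and foxa2 (2.68 ± 0.52), both with an edgeR adjusted p of 0.679. Of all 23090 genes, 1513 had an unadjusted p under 0.05. With 1 library left out, edgeR called 3 members in lung without the female head (0.598% of all genes), 2 without the male head (0.180%), 3 without the female heart (7.49%) and none without the male heart (0%). The log2 fold change of foxf1 was 5.25 without the female heart (edgeR adjusted p = 0.0486) and 5.96 without the male heart (edgeR adjusted p = 0.0727).

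The hedgehog pathway was read from 17 genes. Its ligand gene shh was highest in the libraries with foxf1: 68.1 TPM in lung, 42.6 in intestine and 25.1 in GI tract, against 0 to 7.97 TPM in the other 6. The 17 genes summed to 255 TPM in lung, 133 in testes, 111 in male head, 102 in intestine, 101 in female head, 89.4 in GI tract, 85.1 in male heart, 56.0 in female heart and 11.5 in ovary. None of the 17 was called in lung by edgeR, which called 0% of all genes there, so the count says nothing particular to this list. Their median log2 fold change was 0.90 against 0.26 for all genes.

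The gut libraries shared a set of members. Both libraries also held transcripts of other organs: 10 exocrine pancreas markers summed to 80211 TPM in intestine and 59608 in GI tract. Liver markers, 10 genes, summed to 1216 TPM in intestine and 3606 in GI tract. The part of those transcripts in the levels of these members was not tested. The endoderm gene foxa1 stood at 58.6 TPM in intestine and 52.9 in GI tract, and at 41.5 and 58.8 in female and male head, 26.6 in lung, 18.4 in testes, 0.06 and 0.23 in female and male heart, and 0 in ovary. The gut mesenchyme gene foxl1 stood at 4.83 TPM in GI tract, 3.83 in intestine, 2.36 in testes, 1.75 and 0.76 in female and male head, 0.57 in lung, and 0 in both hearts and ovary. The stromal genes foxd1 and foxd2 were highest in GI tract, at 3.57 and 3.25 TPM, with 2.15 and 1.78 TPM in intestine. In the female and male heads foxd1 had 2.12 and 0.89 TPM and foxd2 had 2.50 and 1.92 TPM, so both heads were above intestine for foxd2. In mouse, foxq1 acts in surface mucous cells of the stomach, and it too was highest in GI tract. Over the 9 libraries foxa1 and foxa2 had similar profiles (Pearson r = 0.948 on log2(TPM + 1)), as did foxa2 and foxf1 (0.891).

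**Figure D4:**
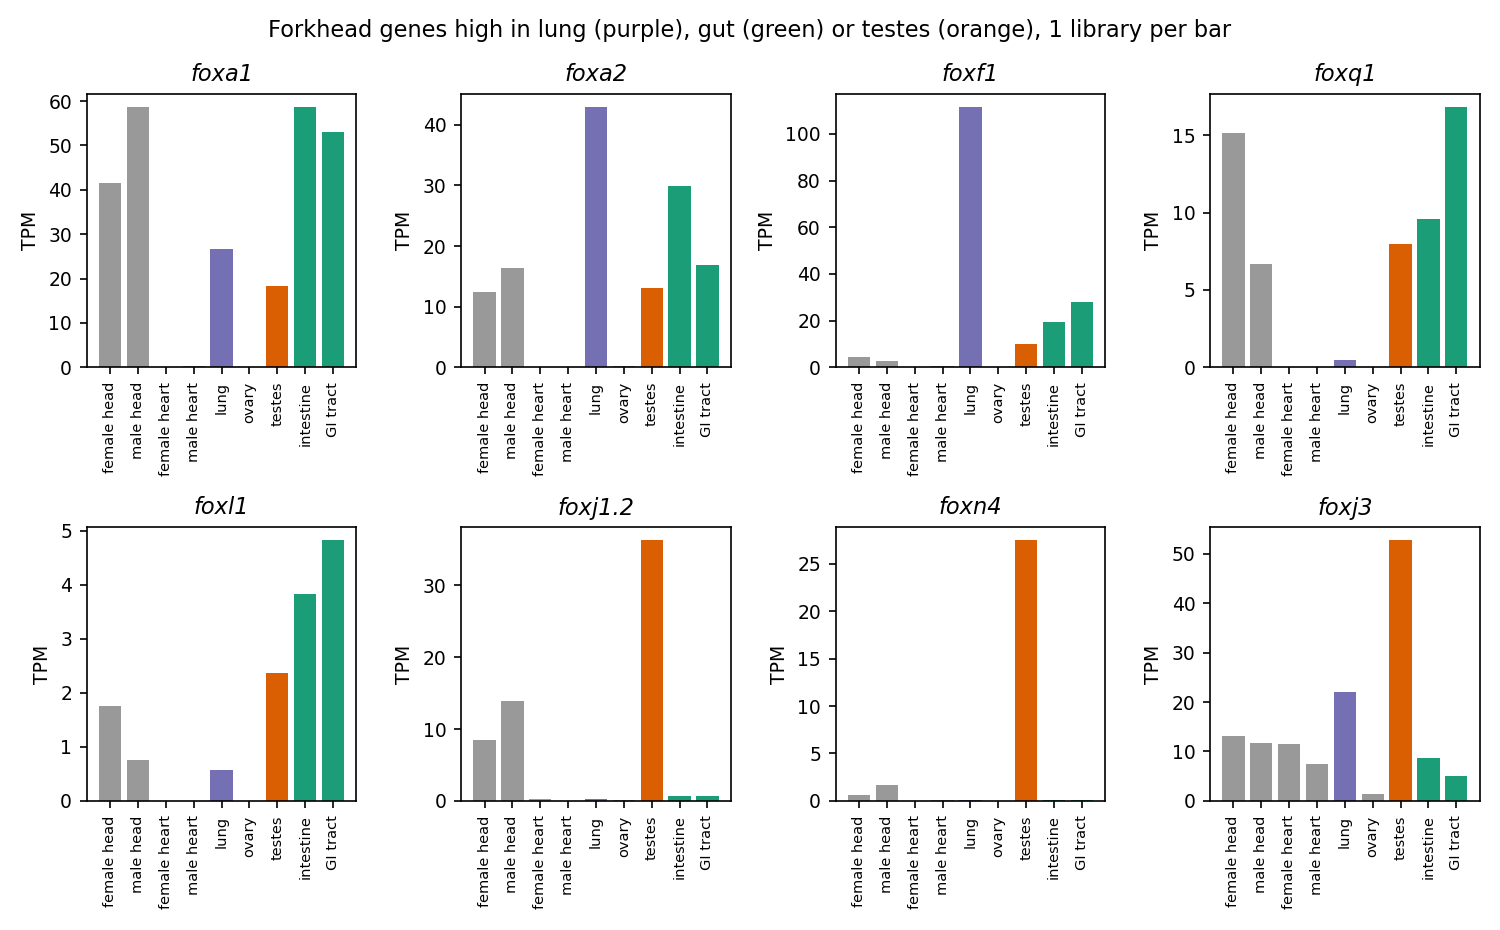
TPM of 8 forkhead genes in each of the 9 libraries, with 1 bar per library, no error bars, and lung in purple, the gut libraries in green, testes in orange and the other libraries in grey. Lung has the tallest bar for foxf1 (112 TPM) and foxa2 (43.0 TPM), GI tract for foxq1 and foxl1, and testes for foxj1.2, foxn4 and foxj3.

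Between intestine and GI tract edgeR called 0 of 38 members and 0% of all 23090 genes. At an unadjusted p under 0.05 there were 0 members and 231 of all genes. DESeq2 and limma also called 0 members, and DESeq2 called 0.139% of all genes. Against the mean of the other tissues edgeR called 0 members in intestine (0% of all genes) and 0 in GI tract (0% of all genes), also with lung left out. At an unadjusted p under 0.05 there were 9 members and 3293 of 23090 genes in intestine, and 9 members and 3162 genes in GI tract. Limma called none in either library on both log scales. DESeq2 called 5 members higher in intestine, namely foxa1, foxa2, foxl1, foxp3 and foxq1, and 2 lower (6.15% of all genes). In GI tract it called 4 higher, namely foxa1, foxf1, foxl1 and foxq1 (4.25% of all genes). With 1 library left out, edgeR called in intestine 2 members with the female head out (2.77% of all genes), 5 with the male head out (2.97%), 12 with the female heart out (13.5%) and 12 with the male heart out (17.3%). In GI tract the counts were 4 (3.26%), 3 (3.13%), 8 (10.3%) and 10 (13.1%) in the same order.

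Partners of the foxa genes in endoderm were read from 22 regulators. In edgeR none of 20 tested was called higher or lower in either gut library, where 0% of all genes were called. Their median log2 fold change was 3.94 in intestine and 4.23 in GI tract, against 0.01 and 0.12 for all genes. The nuclear receptor gene hnf4g was at 234 TPM in intestine and 223 in GI tract, at 76.0 in testes and 4.54 in female head, and at most 0.22 in the other 5 libraries. The gut members in the testes library, foxa1 at 18.4, foxf1 at 10.1, foxq1 at 7.99 and foxl1 at 2.36 TPM, stood beside sums of 7851 TPM for intestinal epithelium markers and 19780 TPM for exocrine pancreas markers there. The part of those transcripts in the testes levels was not tested.

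Testes was highest for foxj3, foxj1.2 and foxn4, and by a small margin in TPM for foxj2, described below with the broad members. The paralog of foxj1, foxj1.2, stood at 36.3 TPM in testes, 8.43 and 13.9 in female and male head, and at most 0.70 in the other 6 libraries. The ciliated cell regulator foxn4 stood at 27.5 TPM in testes, 17 times male head (1.62 TPM), with 0.58 in female head and at most 0.09 elsewhere. In mouse, foxj3 is needed for spermatogenesis, and here it stood at 52.8 TPM in testes, 22.1 in lung, 13.2 and 11.7 in female and male head, 11.5 and 7.51 in female and male heart, 8.64 in intestine, 5.05 in GI tract and 1.45 in ovary. Testes stood above all 8 other libraries for these 3 genes, and foxj1 itself, at 0.53 TPM, did not follow.

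Against the mean of the other 6 tissues edgeR called 0 of 38 members in testes (0% of all genes), also with lung left out. An unadjusted p under 0.05 was found for 9 of the 38 members and 4160 of the 23090 genes. The lowest adjusted p values were those of foxn4 (log2 fold change 8.48 ± 1.14, SE; edgeR adjusted p = 0.0759) and foxj1.2 (5.35 ± 0.81; edgeR adjusted p = 0.0786). DESeq2 called foxj1.2, foxn4 and foxn1 higher (4.37% of all genes), and limma called 3 members on log2(TPM + 1) (8.84% of all genes) and 1 on log2(TPM + 0.1) (5.95%). When 1 head or heart library was left out, edgeR called foxn4 in each of the 4 cases, with adjusted p from 8.46e-05 to 0.0275. It then called 2 members without the female head (4.51% of all genes), 2 without the male head (4.05%), 4 without the female heart (19.0%) and 4 without the male heart (14.9%). Motile cilia markers, 25 genes that sperm tails also use in part, summed to 3700 TPM in testes, 1365 in female heart and 53.7 to 753 in the other 7 libraries. The female and male heads had 477.7 and 578.5 TPM. The sums rest on unlike numbers of markers: 22 reached 1 TPM in testes and 24 in each head, but only 10 in female heart. Of these markers, none was called in testes by edgeR, which called 0% of all genes there. Their median log2 fold change was 4.11 against 0.31 for all genes.

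Of 9 members that reached 1 TPM in at least 8 libraries, 8 were grouped as broad, and foxj3 was described with testes. In TPM ovary was the lowest library for 7 of the 8 broad members and for foxj3 (1.45 TPM). In TMM-scaled CPM ovary was the lowest for 5 of the 8, namely foxp1, foxk2, foxj2, foxo1 and foxo4, and for foxj3 (5.87). The checkpoint gene foxn3 stood at 13.1 TPM in ovary and between 48.3 (female heart) and 108 TPM (lung) in the other 8, but in TMM-scaled CPM ovary (122) lay above testes (75.5) and female heart (76.1). Its log2 fold change in ovary against the mean of the other tissues was -0.09 in edgeR and 0.17 in DESeq2, and neither was called. The level of foxp1, which acts in lung, heart and lymphocyte development, was 9.52 TPM in ovary, 59.2 to 71.4 in 7 libraries and 130 in lung. The metabolic regulator foxk2 stood at 0.86 TPM in ovary, 23.1 in testes, 32.0 and 41.7 in female and male head, 41.8 and 79.0 in female and male heart, 49.3 in GI tract, 64.6 in lung and 75.7 in intestine. The level of foxj2 was 0.26 TPM in ovary, 9.82 in female heart and 27.7 to 41.0 in the other 7. Testes was highest for foxj2 in TPM, just above female head (38.45 TPM), and GI tract in TMM-scaled CPM (45.5). The exception was foxp4, which stood at 5.34 TPM in ovary, 3.63 and 5.77 in the hearts of the female and the male, 33.4 in lung, and at 7.18 to 17.4 elsewhere.

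The foxo genes encode factors that insulin and Akt signalling keep out of the nucleus. The level of foxo1 was 1.05 TPM in ovary, 8.54 and 31.8 in female and male heart, 10.3 in testes, 15.7 in GI tract, 26.9 and 40.1 in female and male head, 28.1 in intestine and 35.3 in lung. The level of foxo3 varied least of the 3, at 7.52 TPM in ovary and 7.95 in intestine at the low end and 24.1 in lung at the high end. In TMM-scaled CPM testes was lowest for foxo3 (17.9), and ovary (42.7) was second only to male heart (47.0). The level of foxo4 was 0.04 TPM in ovary and 1.95 to 8.20 TPM in the other 8. Female heart was below male heart for foxo1, foxj2 and foxk2, with differences of -1.78, -1.74 and -0.90 on log2(TPM + 1), and none of the 3 was called between females and males.

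Ovary against the mean of the other 6 tissues gave 1 called member of 38 in edgeR, foxa1, which was lower (2.63% of members; 4.41% of all genes were called lower). Ovary had 0 counts of foxa1, against 2 and 13 in the hearts of the female and the male and 740 to 2941 in the other 6 libraries, and the fitted log2 fold change was -12.33 ± 2.50 (SE; edgeR adjusted p = 0.0477). The call was lost without the low count filter (adjusted p = 0.0684) and with DESeq2 size factors (0.054). The median log2 fold change was -3.57 for members and -1.87 for all genes. DESeq2 called 15 members lower, foxj2, foxk2, foxo1 and foxo4 among them, and 1 higher (22.9% of all genes were lower), and limma called 8 lower on log2(TPM + 1) and 17 lower on log2(TPM + 0.1), where 18.0% and 29.3% of all genes were called. With 1 library left out, edgeR called 3 members without the female head (10.1% of all genes), 3 without the male head (9.94%), 19 with the female heart out (55.1%), 17 with the male heart out (52.1%) and 1 without lung (12.2%). In edgeR foxj2 had a log2 fold change of -6.18 ± 1.41 (SE; edgeR adjusted p = 0.0559), foxk2 -4.42 ± 1.01 (edgeR adjusted p = 0.0559) and foxo4 -4.91 ± 1.05 (edgeR adjusted p = 0.0512).

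The member higher in ovary was foxr1. Its log2 fold change over the mean of the other tissues was 9.79 ± 2.34 (SE; edgeR adjusted p = 0.0597), and DESeq2 called it (9.96 ± 2.04, SE; DESeq2 adjusted p = 1.55e-05), as it did 14.2% of all genes in that direction. Without the female heart edgeR called foxr1 with a log2 fold change of 11.10 (adjusted p = 0.012), and without both lung and the female heart, an alternative added after seeing the data, with 12.12 (adjusted p = 0.0112). Without the female head, the male head or the male heart it was also called, at 10.41 (adjusted p = 5.58e-11), 9.62 (adjusted p = 1.43e-09) and 9.62 (adjusted p = 0.0188). It was not called without lung (10.62, adjusted p = 0.0611), with DESeq2 size factors (10.13, adjusted p = 0.0512), without the low count filter (9.78, adjusted p = 0.0873), or in limma on log2(TPM + 1) (7.44, adjusted p = 0.166) and log2(TPM + 0.1) (8.47, adjusted p = 0.205).

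Ovary against testes gave 0 called members of 38 in edgeR (0% of all genes). An unadjusted p under 0.05 was found for 17 of the 38 members and 6954 of the 23090 genes. DESeq2 called 14 members, foxr1 higher and 13 lower in ovary (26.6% of all genes), and limma called 10 lower on log2(TPM + 1) (22.7% of all genes) and 17 lower on log2(TPM + 0.1) (27.9%). The median log2 fold change was -5.04 for members and -2.08 for all genes. Calls in edgeR numbered 18 without the female heart (47.4% of members, 48.8% of all genes), 18 without the male heart (47.4% and 46.8%) and 20 without both lung and the female heart (52.6% and 51.0%). Of 31 genes of insulin to Akt signalling and foxo targets and 17 hedgehog genes tested, edgeR called none between ovary and testes. Against the mean of all other tissues it called 4 of the 17 hedgehog genes lower in ovary, and 2 of the 31 insulin and foxo target genes higher and 2 lower. Of all 23090 genes 12.6% were called in that contrast in either direction, and 4.41% were called lower.

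Several members lie next to each other in the RefSeq gene order, with no protein-coding gene between them. The neighbours foxf2 and foxq1 had similar profiles (Pearson r = 0.748 on log2(TPM + 1) over 9 libraries), while foxc1, on the other side of foxf2, did not follow foxf2 (r = -0.309). The neighbours foxc2 and foxl1 had unrelated profiles (r = 0.046), one high in head and the other in gut. The pairs foxi4.2 and foxi4.1, and foxd4l1.1 and foxd4l1.2, stayed under 1 TPM in every library, and reads of such near copies may be split uncertainly.

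Comparing members by TPM, by counts or by TMM-scaled CPM changed some orders. Counts per unit of TPM, relative to all genes, had a median over libraries of 0.248 for foxp1 and 0.272 for foxr1 but 3.50 for foxk2, so foxp1 lay above foxk2 in TPM in 7 libraries while having fewer counts in all 9. For foxn3 this quantity was 2.93 in ovary and 1.05 in female heart, and for foxf2 it was 1.63 in intestine and 3.26 in GI tract, so the transcript length behind a TPM was not the same in all libraries. The highest library was the same by TPM and by TMM-scaled CPM for 22 of the 33 members. It differed for foxa1, foxa2, foxf2, foxj2, foxk2, foxm1, foxn2, foxn3, foxo1, foxo3 and foxp1. In TMM-scaled CPM foxp1 was highest in intestine (39.1) and foxa2 in intestine (54.8), rather than in lung. In raw counts lung stayed above intestine, with 1185 against 970 for foxp1 and 1363 against 1359 for foxa2.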

How the data were processed

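Messenger RNA was sequenced in 9 libraries of 7 adult tissues. The authors deposited a table of counts per gene and a table of TPM, which sums to 1000000 per library. The submitters' processing notes list RSEM 1.3 and deepTools and give neither a role. The deposited counts were taken for expected counts of RSEM after rounding, since 1272 entries pair 0 counts with a TPM above 0. Not given in the sources used here are the aligner, genome build and annotation. No coordinates or sequences are therefore printed, and RefSeq (UCB_Xtro_10.0) served for names and gene order. The row without a gene name, 0.0113 to 1.78% of counts, was left out.

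Counts were tested with the quasi-likelihood test of edgeR 4.0.16, with TMM factors, its default low count filter and Benjamini-Hochberg adjustment over all genes tested (threshold 0.05). Standard errors were the fold change over the square root of F. Head against heart used 4 libraries and tissue, and female against male added sex. Other comparisons used all 9 libraries with a mean per tissue, and single-library tissues were assumed to vary like the head and heart pairs. Alternatives were DESeq2 1.42.0, limma 3.58.1 on log2(TPM + 1) or log2(TPM + 0.1), other size factors, no filter, libraries left out, and sex as a block. Replicate numbers follow the listing order and pair nothing. The female minus male differences of head and heart correlated at 0.444 over 19276 genes. The edgeR script was tested on simulated data.

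Members at 5 TPM or more in their highest library are given in every library or by range, and called members with fold change and SE. Of the members counted here, 1 is not reported by itself. Outside the family, the most abundant 3 genes of each list and the 5 genes most like foxh1 and foxr1 could be named. The members and the 27 lists were chosen with earlier results of these data known.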

Additional observations from a re-analysis of the deposited data

How the results depend on the processing

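The count of called members was the value that moved most with the processing, and the share of all genes called moved too. For head against heart that share was 0% in edgeR, 20.3% in DESeq2 and 14.4% in edgeR with sex as a block. Limma gave 11.0% on log2(TPM + 1) and 16.1% on log2(TPM + 0.1). For female against male the share was 1.62% in edgeR and 0% in limma. For ovary against testes it was 0% in edgeR, 26.6% in DESeq2, and 22.7% and 27.9% in limma on these scales. For head against heart the 0 members of the edgeR test without a sex term became 14 in DESeq2, 10 and 13 in limma on log2(TPM + 1) and log2(TPM + 0.1), and 14 with sex as a replicate block. With 1 library left out the count ran from 2 to 21. For female against male the 3 members became 0 in limma on either log scale, and no library could be left out, since the fit would have no residual degrees of freedom. For ovary against testes 0 became 14 in DESeq2, 10 and 17 in limma on log2(TPM + 1) and log2(TPM + 0.1), 0 to 18 with 1 library left out, and 20 without lung and the female heart. Summed over the 7 contrasts of a tissue with the others, 8 calls became 52 in DESeq2, 19 and 26 in limma on the same scales, 4 without the low count filter, 5 to 76 with 1 library left out, and 72 without lung and the female heart. The share of all genes called in these contrasts was 9.96% in edgeR and 13.7% in DESeq2 for head, and 12.6% and 37.1% for ovary. The fits without lung hold no lung contrast, so their sums cover only the contrasts of the remaining tissues. Without lung and the female heart, the share of all genes called rose in every one of those contrasts, as the member calls did. Without lung alone that share rose in none of them. Intestine against GI tract gave 0 members in every setting run. DESeq2 size factors in edgeR left the 4 comparisons of pairs and the sum of 8 at the same counts. Within that sum head went from 7 to 8 members and ovary from 1 to 0. The settings without lung and the female heart were chosen after seeing the data. With 1 heart left out, no difference between the hearts enters the spread, so only the head pair does. The share of all genes called rose as well in most of these fits.

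Among single members, 2 results turned round in fits without a sex term, although head was below heart within each sex: the log2 fold change of head against heart ran from -15.89 (without the female head) to 2.99 (without the female heart) for foxh1, and from -10.64 to 2.82 for foxi2. The male head had 0 and 3 counts of these genes, so the low ends depend on the prior count of the fit. The other results were followed only for members called in the main fit or, for head against heart, with sex as a block. Under alternatives 139 of these stayed on their side of the threshold, 77 passed it and 25 lost it. The block was itself counted as an alternative, so 14 of the 77 followed from that selection. Detection at 0.5 and 5 TPM gave 37 and 27 members instead of 33. The sex block changed no other comparison, because it was run for head against heart alone. Whether depth limited the calls was not tested. The 9 members under 1 TPM had at most 82 counts in all libraries together. Among members above 1 TPM, foxd3 had 177 and foxj1 had 278.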
